A study of Mus musculus with 9 samples.

Results

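The clustered protocadherins are cell surface adhesion genes that lie side by side in 3 arrays, alpha, beta and gamma, on mouse chromosome 18. The members were taken by name, as every gene whose symbol begins with Pcdha, Pcdhb or Pcdhg, a rule that uses no measured value. The authors' deposited table of Mutant against Control lists 50 of them among 22631 genes, namely 7 alpha, 21 beta and 22 gamma genes. The authors' deposited table of PT against PUT lists 57 of them among 27775 genes, namely the same 50 and 7 further alpha genes. The symbol Pcdha11 stands on 2 gene IDs, ENSMUSG00000007440 and ENSMUSG00000102206, which were kept apart. Pcdhb1 was not analysed here.

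RNA was measured in cultured, activated muscle stem cells (satellite cells) from hindlimb muscle of 9-week-old mice, in 9 libraries that fall into 3 groups of 3. Mutant cells came from mice deficient for Uhrf1 in satellite cells, which received tamoxifen (150 µl at 20 mg/ml, on 5 days) to induce Cre recombination. Control mice received oil, and cells of both groups were cultured for 3 days from 5000 cells/cm2. Cre Control mice received tamoxifen, and their libraries were not analysed here. The Cre driver, the alleles that Control mice carry and whether the libraries came from separate animals are not given in the sources used here; p-values therefore measure only how these libraries vary, which may be technical. Tamoxifen and the loss of Uhrf1 cannot be told apart in Mutant against Control. The labels do not tie the arms PT and PUT to groups.

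In the alpha and gamma arrays each gene has a variable exon with a promoter of its own, which is spliced to constant exons shared by the whole array. Beta genes have no constant exons. In neurons, single cells choose different promoters through DNA methylation, the insulator protein CTCF and cohesin, and the proteins bind their own kind on opposing membranes, which lets a neuron tell its own branches from those of other cells. The C-type genes, Pcdhac1, Pcdhac2, Pcdhgc3, Pcdhgc4 and Pcdhgc5, stand at the 3′ ends of the alpha and gamma arrays, differ in sequence from their neighbours and are used in most neurons rather than chosen cell by cell. Uhrf1 reads hemimethylated DNA behind the replication fork and brings in Dnmt1, which copies the methylation to the new strand.

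By the GENCODE M21 annotation (GRCm38) the alpha array holds 14 genes on chromosome 18 from 36930184 to 37187661, the beta array 22 genes from 37264938 to 37524479, and the gamma array 22 genes from 37661793 to 37841873, all on the plus strand. The arrays differ in how much exon sequence their genes share. Every alpha gene holds the same 2860 constant exon bases, which with other shared bases made up 38% to 54.9% of a gene's exon bases. Every gamma gene holds the same 2116, and shared bases made up 27.8% to 66.8%. Beta genes shared no exon bases with another member, apart from the neighbours Pcdhb21 and Pcdhb22, which overlap by 455 bases. Of the windows of 150 bases along a beta gene's transcripts, the labelled read length, at most 6.72% also occurred in another member, against 39.8% to 54.7% for alpha genes and 25% to 61.2% for gamma genes. A beta value can thus be read for the gene by itself, while an alpha or gamma value depends on how reads in constant exons were counted, on which the sources used here are silent.

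The libraries and the cells were checked first. Uhrf1 averaged 20.4 TPM in Mutant cells and 118 TPM in Control cells by the authors' deposited table, with a test estimate of −3.12 (SE 0.60, adjusted p = 4.01e-06). Here and below the test estimate is the log2 difference, Mutant over Control, that the deposited standard error (SE) belongs to, TPM is a transcript level scaled for length and library depth, and a gene passed at an adjusted p below 0.05. Gene values are group means with no value per library. In repeat counts, the retroviral sequence IAPEz-int took 9.29%, 11.1% and 16.3% of the repeat counts in the Mutant libraries, 0.501% and 0.675% in Control 1 and Control 2, and 13.1% in the library labelled Control 3 (95% Wilson interval 13.1% to 13.2%, counting error only). That library stood with the Mutant libraries there, and what it contributes to the Control means of the members was not tested. Markers of satellite cells and myoblasts were abundant, with summed means of 2538 TPM in Mutant and 2573 TPM in Control cells over 8 genes, of which 3 rose and 4 fell by the authors' deposited table. Of 7 neuron markers measured none passed, with sums of 29.3 TPM in Mutant and 33.2 TPM in Control cells, nearly all from Tubb3 and Map2, while Snap25, Syt1 and Nefl stayed below 0.2 TPM in both groups of the authors' deposited table. Of 6 macrophage and leukocyte markers 2 rose and none fell, against 9.02% of all genes higher and 8.11% lower, and none was listed at 0. Their sums were 114.5 TPM in Mutant and 34 TPM in Control cells, mostly from Laptm5, with 84.8 TPM in Mutant and 25.1 TPM in Control cells by the authors' deposited table, and from Fcer1g, which did not pass. The 2 that rose were Laptm5 and Cd68. Cd68 averaged 6.27 TPM in Mutant and 3.46 TPM in Control cells by the authors' deposited table. Only Ptprc, the pan-leukocyte marker, had a lower mean in Mutant cells. It stood at 0.303 TPM in Mutant and 0.381 TPM in Control cells by the authors' deposited table. Adgre1 and Tyrobp were not analysed here. The other counts were 1 higher and 1 lower of 8 Schwann cell markers, 1 higher of 8 fibroblast markers, 1 higher and 2 lower of 6 endothelial markers, and 2 higher of 6 smooth muscle and pericyte markers. The part of these cells in the members' values was not tested. In bulk RNA, fewer cells of a type and less RNA per cell cannot be told apart.

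Satellite cells of both groups had beta and gamma protocadherin RNA and almost no alpha RNA, and 1 gene, Pcdhgc3, held most of it. Pcdhgc3 (ENSMUSG00000102918, chromosome 18, 37806364 to 37841873) averaged 145 TPM in Mutant and 161 TPM in Control cells by the authors' deposited table. It was the only member above 10 TPM, and the C-type gamma genes together made up 70.7% of the members' summed TPM in Mutant and 76.7% in Control cells. The next most abundant members by mean TPM were Pcdhgc5, Pcdhgb6, Pcdhgb2 and Pcdhgb7, at 3.4 to 7.1 TPM over all libraries. All 50 members summed to 219.8 TPM in Mutant and 222.8 TPM in Control cells, a ratio of 0.986. That ratio follows Pcdhgc3: without the most abundant member of each array it was 1.2, and without the C-type genes it was 1.24.

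**Figure D1:**
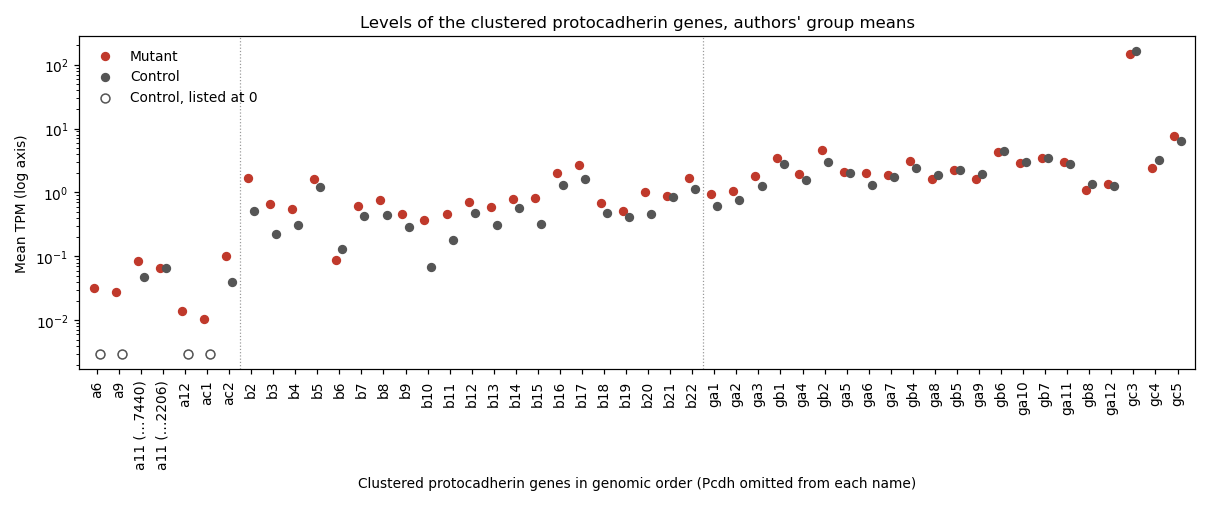
Mean TPM (log axis) of the 50 members listed for Mutant (red) and Control (grey) cells, in genomic order, from the authors' deposited table. Open circles at the foot mark the 4 alpha genes listed at 0 in Control cells. Pcdhgc3 stands far above the rest, the alpha genes lie at or near 0.1 TPM or below, and 20 of the 21 beta genes lie higher in Mutant than in Control cells.

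Few single members passed the test. In Mutant cells Pcdhb2, Pcdhb17 and Pcdhgc5 rose and Pcdhgc3 fell, 4 of 50 members or 8%, against 17.1% of all genes of the authors' deposited table. In the higher direction it was 3 members, against 9.02% of all genes, and in the lower direction 1 member, against 8.11% of all genes. The members' share was thus below that of the table as a whole. At an unadjusted p below 0.05 it was 15 members, 12 higher and 3 lower. The share of all genes at that threshold is not given here, so that count cannot be set against the table as a whole. Most members are low, and low genes pass rarely: among the 7382 genes whose mean TPM lay within the range of the beta members, 0.109 to 2.14 TPM, 3.25% passed, 2.91% higher and 0.339% lower. The median test estimate of the members was 0.50, against 0.01 over all genes of the authors' deposited table.

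Most beta genes had a higher mean in Mutant cells, and few of them passed the test. Summed over its 21 genes it stood at 19.7 TPM in Mutant and 11.8 TPM in Control cells, a ratio of 1.67. In all but Pcdhb6 the mean TPM was higher in Mutant cells and the test estimate positive. Pcdhb6 stood at 0.0888 TPM in Mutant and 0.128 TPM in Control cells by the authors' deposited table. Across the array the median test estimate was 0.67, beside a median SE of 0.58, and the median ratio of mean TPM was 1.60. Among the genes within the range of the beta members the median test estimate was 0.07, and 52.9% were positive. The beta share past the threshold was 9.52%, namely 2 of 21, both higher. Among the genes within that range 3.25% passed, 2.91% higher, so the beta share was above theirs. Their median SE was 1.04, against 0.58 for the beta genes, so the shares are not of like precision. What that difference adds to the gap between the shares was not tested. Of the 21 genes 9 had an unadjusted p below 0.05, and no share of other genes is given at that threshold. The summed macrophage and leukocyte markers were also higher in Mutant cells, mostly through Laptm5 and Fcer1g, and their median test estimate was 1.13. Laptm5 and Cd68 (0.98, SE 0.34, adjusted p = 0.0244) passed by the authors' deposited table. Ptprc alone had a negative estimate there (−0.39, SE 0.64, adjusted p = 0.893). Other marker lists had positive medians too, 0.29 for smooth muscle and pericyte and 0.24 for fibroblast markers. Medians were negative for Schwann cell (−0.22), neuron (−0.24), endothelial (−0.24) and satellite cell and myoblast markers (−0.14). The part of any of these markers in the beta values was not tested.

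Pcdhb2 (ENSMUSG00000051599, chromosome 18, 37294812 to 37297624) had the lowest adjusted p of all members. It averaged 1.68 TPM in Mutant and 0.518 TPM in Control cells by the authors' deposited table, a ratio of 3.26. Its test estimate there was 2.31 (SE 0.53, adjusted p = 0.000174), above the log2 ratio of its mean TPM, 1.70. Pcdhb17 (ENSMUSG00000046387, chromosome 18, 37484795 to 37489454), the most abundant beta gene, averaged 2.67 TPM in Mutant and 1.61 TPM in Control cells by the authors' deposited table. Its test estimate by the authors' deposited table was 0.72 (SE 0.25, adjusted p = 0.0300). Both are single beta genes whose exons no other member overlaps.

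The other abundant beta genes did not pass. Pcdhb16 stood at 2.02 TPM in Mutant and 1.32 TPM in Control cells by the authors' deposited table (0.59, SE 0.24, adjusted p = 0.0804). Pcdhb22 stood at 1.67 TPM in Mutant and 1.13 TPM in Control cells by the authors' deposited table (0.66, SE 0.27, adjusted p = 0.0780). Pcdhb5 stood at 1.64 TPM in Mutant and 1.22 TPM in Control cells by the authors' deposited table (0.42, SE 0.34, adjusted p = 0.558). All were higher in Mutant cells, with intervals that for Pcdhb5 span 0 (−0.25 to 1.08). The widest ratio of the array, chosen after its values were seen, belonged to Pcdhb10, with 0.372 TPM in Mutant and 0.0688 TPM in Control cells by the authors' deposited table. At so low a level its test estimate of 2.39 had an SE of 1.15 and an adjusted p of 0.162 by the authors' deposited table. Across the array, position in the genome and the test estimate had a Spearman rho of −0.28 (21 genes that share libraries and locus), a description only.

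**Figure D2:**
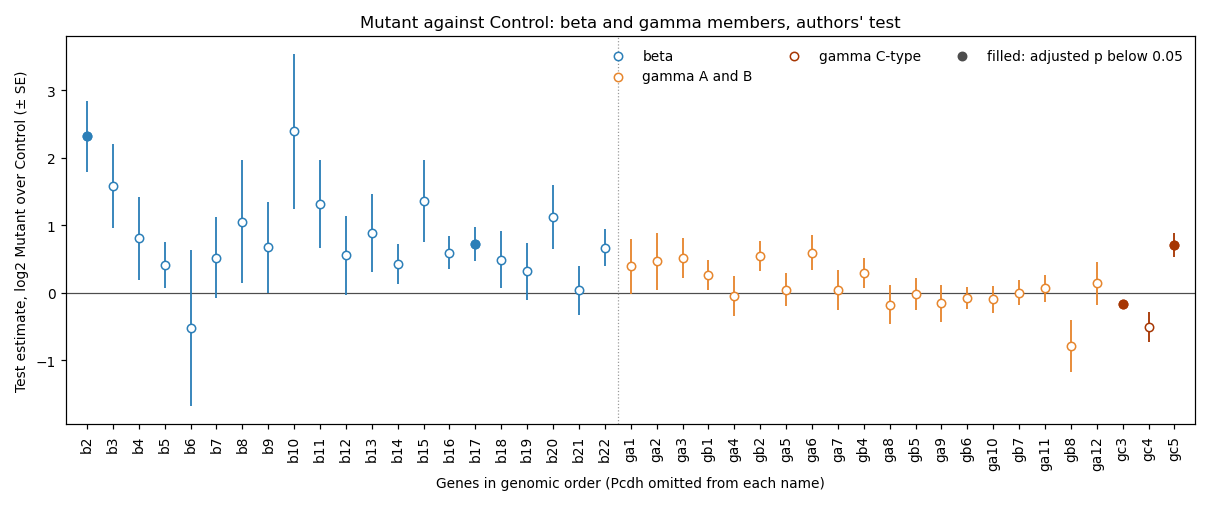
Test estimate (log2 Mutant over Control) with its SE as bars for the 21 beta and 22 gamma members in genomic order, from the authors' deposited table, with filled points for an adjusted p below 0.05. Beta estimates lie above 0 in all but Pcdhb6 with wide bars, gamma A and B estimates lie closer to 0, and Pcdhgc3 (−0.16) and Pcdhgc5 (0.71) lie on opposite sides of 0.

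Of the 3 C-type gamma genes Pcdhgc5 rose, Pcdhgc3 fell and Pcdhgc4 did not pass. Pcdhgc3, a widely used isoform whose protein binds the Wnt pathway scaffold Axin1, fell by a small amount that was large beside its error (test estimate −0.16, SE 0.05, adjusted p = 0.00596 by the authors' deposited table). Axin1 itself stood at 35.5 TPM in Mutant and 41.5 TPM in Control cells by the authors' deposited table (−0.10, SE 0.08, adjusted p = 0.549). Pcdhgc4 (chromosome 18, 37815079 to 37841873), needed in mice for the survival of neurons, stood at 2.37 TPM in Mutant and 3.21 TPM in Control cells by the authors' deposited table (−0.51, SE 0.22, adjusted p = 0.0938). Its estimate had the sign of Pcdhgc3 and did not pass. Pcdhgc5 (ENSMUSG00000102543, chromosome 18, 37819513 to 37841873), the last gene of the array, averaged 7.77 TPM in Mutant and 6.42 TPM in Control cells by the authors' deposited table. It rose, with a test estimate of 0.71 (SE 0.18, adjusted p = 0.000730 by the authors' deposited table). The log2 ratio of its mean TPM was smaller, 0.28, so the size of its rise depends on which of the deposited quantities is read. Pcdhgc5 also holds the most exon bases of its own among the gamma genes, 5508, beside the 2116 shared by all.

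None of the 19 gamma A and B genes passed, and 3 had an unadjusted p below 0.05, namely Pcdhgb2, Pcdhga6 and Pcdhgb8. Their sums were 44.4 TPM in Mutant and 39.9 TPM in Control cells, a ratio of 1.11. The most abundant over all libraries, Pcdhgb6, stood at 4.29 TPM in Mutant and 4.49 TPM in Control cells by the authors' deposited table (−0.08, SE 0.17, adjusted p = 0.926). Pcdhgb2 stood at 4.62 TPM in Mutant and 3.03 TPM in Control cells by the authors' deposited table (0.54, SE 0.22, adjusted p = 0.0781). Pcdhgb7 stood at 3.46 TPM in Mutant and 3.42 TPM in Control cells by the authors' deposited table (0.00, SE 0.19, adjusted p = 1.00). Of these 3, Pcdhgb2 was nearest to the threshold, and the interval of Pcdhgb7 ran from −0.36 to 0.37. Pcdhgb8, annotated as a polymorphic pseudogene and named after its values were seen, stood at 1.08 TPM in Mutant and 1.38 TPM in Control cells by the authors' deposited table (−0.79, SE 0.39, adjusted p = 0.172).

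Along the gamma array the A and B genes were divided by position, after their values were seen. The cut was placed at Pcdhga8, the first of them with a lower mean TPM in Mutant cells. The first 10, from Pcdhga1 to Pcdhgb4, thus all had a higher mean TPM in Mutant cells by the choice of cut. They summed to 22.9 TPM in Mutant and 17.5 TPM in Control cells, a ratio of 1.31. Their median test estimate was 0.34, beside a median SE of 0.27. Only Pcdhga4 had a test estimate below 0 there (−0.04, SE 0.30 by the authors' deposited table). The last 9, from Pcdhga8 to Pcdhga12, summed to 21.6 TPM in Mutant and 22.4 TPM in Control cells, a ratio of 0.960. Their median was −0.08, beside a median SE of 0.24, and 3 of them were higher. Order and test estimate had a Spearman rho of −0.58 and a Pearson r of −0.65 over the 19 genes. They share constant exons, libraries and locus, so these are descriptions, and none of the 19 passed the test.

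Alpha RNA was close to the limit of what these tables resolve. The 7 alpha genes summed to 0.335 TPM in Mutant and 0.154 TPM in Control cells. Pcdha6, Pcdha9, Pcdha12 and the C-type gene Pcdhac1 were listed at 0 in Control cells and at 0.0320, 0.0278, 0.0139 and 0.0106 TPM in Mutant cells by the authors' deposited table, so no fold was drawn for them. Pcdhac2 (chromosome 18, 37143503 to 37187657), the other C-type gene and the most abundant alpha gene, stood at 0.1 TPM in Mutant and 0.0403 TPM in Control cells by the authors' deposited table (1.27, SE 1.21, adjusted p = 0.661). The Pcdha11 gene ENSMUSG00000007440 stood at 0.0853 TPM in Mutant and 0.0478 TPM in Control cells by the authors' deposited table. The Pcdha11 gene ENSMUSG00000102206 stood at 0.0650 TPM in Mutant and 0.0656 TPM in Control cells by the authors' deposited table. None of the 7 passed, none had an unadjusted p below 0.05, and their SE lay between 1.21 and 4.08, which leaves a difference in either direction unresolved.

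In the second deposited comparison, PT against PUT, most of the members that passed were beta genes. Uhrf1 was lower in PT by the authors' deposited table (log2 fold change −4.0, SE 0.27, adjusted p = 1.81e-48). Fold changes are PT over PUT, and levels are mean normalised counts over both arms, since the table holds none per arm. There 9 of 57 members passed, 8 higher and 1 lower, or 15.8%, against 47.2% of all genes, 25.1% higher and 22.1% lower. The members' share was again below that of the table as a whole. By array it was 8 of 21 beta genes, 1 of 22 gamma genes and 0 of 14 alpha genes. No source used here says whether the tables share libraries, so each table's values are only set side by side.

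**Figure D3:**
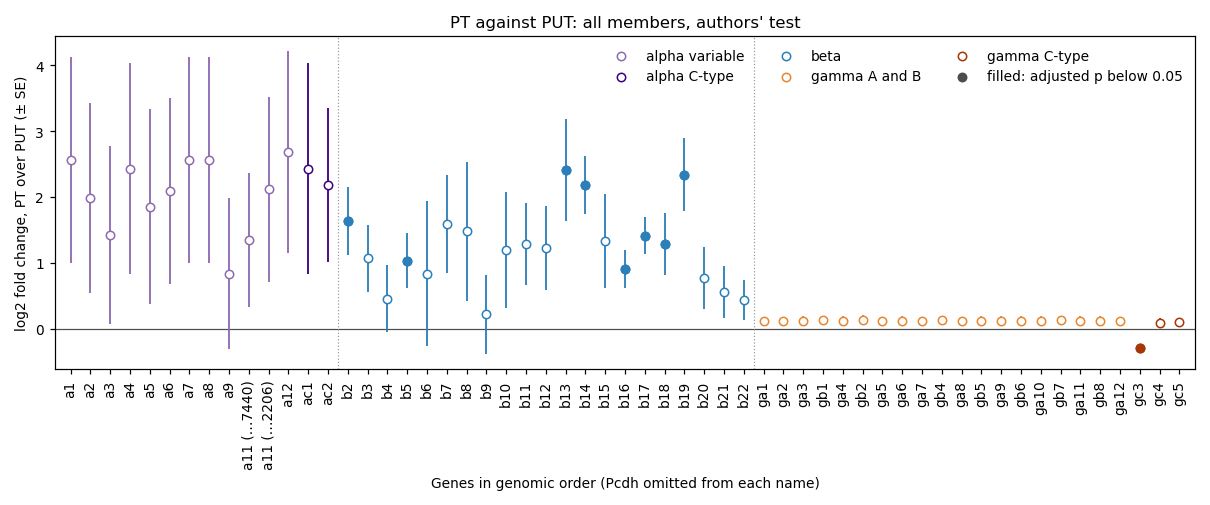
Log2 fold change (PT over PUT) with its SE as bars for the 57 members in genomic order, from the authors' deposited table, with filled points for an adjusted p below 0.05. All 21 beta genes lie above 0 and 8 are filled, 21 gamma genes lie together near 0.12, Pcdhgc3 lies at −0.29, and the alpha genes have the widest bars.

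All 21 beta genes had a positive fold change, from 0.22 to 2.41 with a median of 1.22, and 38.1% passed. Over the 9470 genes whose mean normalised count lay within the range of the beta members, 3.14 to 58.1, the median was 0.48, 66.1% were positive and 32.8% passed, 26.4% higher and 6.37% lower. Counted in either direction, the beta share past the threshold was not far from that of genes of like level. All 8 beta calls were higher, 38.1% against 26.4% higher among those genes, and the beta median was also above theirs. The median SE of those genes was 0.64, against 0.52 for the beta genes. By the authors' deposited table some cell type markers differed between the arms as well. Of 8 satellite cell and myoblast markers 2 rose and 6 fell, with a median of −0.48, against 25.1% of all genes higher and 22.1% lower. The counts were 2 higher and none lower of 7 Schwann cell markers (median 1.04), 2 higher and 1 lower of 5 macrophage and leukocyte markers (1.00), and 4 higher and 1 lower of 6 smooth muscle and pericyte markers (0.92). For fibroblast markers it was 2 higher and 2 lower of 7 (0.10), for endothelial markers 2 higher and none lower of 6 (0.61), and for neuron markers 1 higher and 1 lower of 4 (0.39). Their part in the beta fold changes was not tested. The genes that rose were Pcdhb2, Pcdhb5, Pcdhb13, Pcdhb14, Pcdhb16, Pcdhb17, Pcdhb18 and Pcdhb19. Pcdhb17, at a mean normalised count of 58.1, had a log2 fold change of 1.41 (SE 0.28, adjusted p = 2.14e-06 by the authors' deposited table). Pcdhb14, at 25.8, had one of 2.19 (SE 0.44, adjusted p = 2.93e-06 by the authors' deposited table). Pcdhb19, at 16.4, had one of 2.33 (SE 0.56, adjusted p = 9.68e-05 by the authors' deposited table). Pcdhb19 passed at the median count of the array, whereas Pcdhb22, at 54.0, did not (0.44, SE 0.30, adjusted p = 0.234 by the authors' deposited table).

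The remaining beta calls were nearer the threshold. Pcdhb13 had a log2 fold change of 2.41 (SE 0.78, adjusted p = 0.00501) at a mean normalised count of 8.20 by the authors' deposited table. Pcdhb18 had one of 1.29 (SE 0.47, adjusted p = 0.0160), Pcdhb16 one of 0.91 (SE 0.29, adjusted p = 0.00454) and Pcdhb5 one of 1.03 (SE 0.41, adjusted p = 0.0278) by the authors' deposited table.

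Side by side, Pcdhb2 had a test estimate of 2.31 in Mutant against Control and a log2 fold change of 1.63 (SE 0.52, adjusted p = 0.00432) in PT against PUT, by the authors' deposited tables. For Pcdhb17 the values were 0.72 and 1.41. Pcdhb14 and Pcdhb19 had 0.43 (SE 0.30) and 0.32 (SE 0.42) in Mutant against Control, below their values in PT against PUT, and did not pass there by the authors' deposited table. Pcdhb6, negative in Mutant against Control (−0.52, SE 1.16), was 0.83 (SE 1.1) in PT against PUT, with errors that span both signs by the authors' deposited tables. Per kilobase of exon not shared with another member, the beta levels of PT and PUT ranged from 0.837 for Pcdhb6 to 12.5 for Pcdhb17 in normalised counts. Over the 21 genes these had a Spearman rho of 0.77 with the mean TPM of the other table, a description across genes of one locus.

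**Figure D4:**
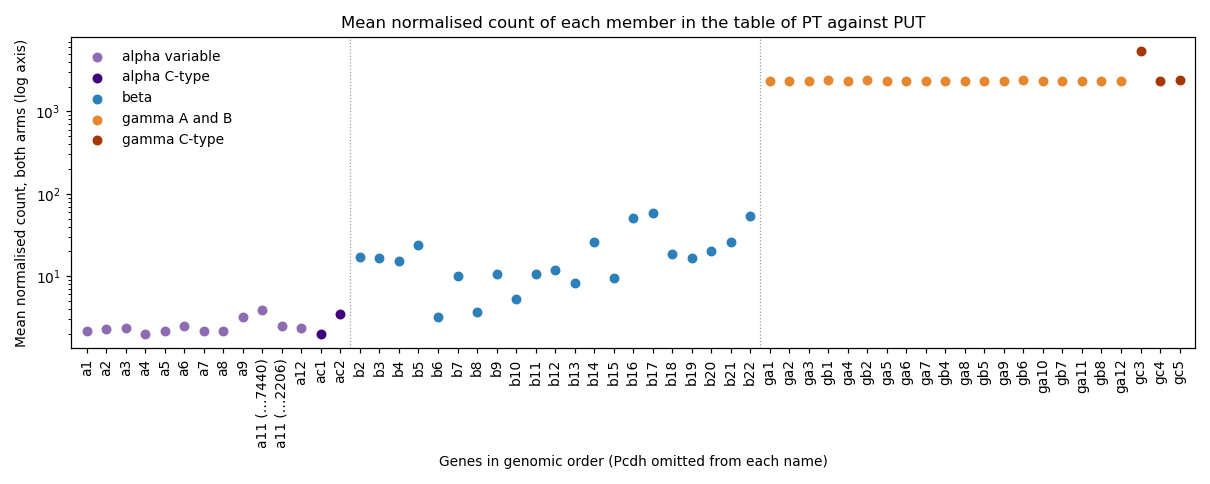
Mean normalised count (log axis) over PT and PUT of the 57 members in genomic order, coloured by array and type, from the authors' deposited table. The 21 gamma genes other than Pcdhgc3 form a level line between 2328 and 2434, while the beta genes spread from 3.14 to 58.1 and the alpha genes lie between 1.99 and 3.92.

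The gamma genes had nearly 1 level between them in this table. All but Pcdhgc3 had mean normalised counts between 2328 and 2434, within 4.55% of each other, and log2 fold changes between 0.09 and 0.13. None of these 21 passed. In TPM the same 21 genes ranged from 0.790 for Pcdhga1 to 7.09 for Pcdhgc5 over all libraries by the authors' deposited table of Mutant against Control. Every gamma gene holds the same 2116 exon bases, and how reads in them were counted was not tested. Since the genes share exons, the 21 values are not independent measurements. Pcdhgc3 stood at 5369, of which 3041 (56.6%) lay above the lowest gamma gene, Pcdhga1. The other gamma genes exceeded Pcdhga1 by at most 106, for Pcdhgc5. Per kilobase of own exon these excesses ordered the 21 genes above Pcdhga1 much as their TPM did (Spearman rho 0.93, a description).

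Pcdhgc3 fell in PT (log2 fold change −0.29, SE 0.06, adjusted p = 2.41e-06 by the authors' deposited table), beside a test estimate of −0.16 in Mutant against Control. Its excess over Pcdhga1 was 56.6% of its count, and Pcdhga1 itself had 0.12 (SE 0.07, adjusted p = 0.163). If the count of Pcdhga1 stands for reads in the shared exons, which was not tested, the value of −0.29 is not one of its own exons alone. Pcdhgc5 had 0.10 (SE 0.07, adjusted p = 0.230) and Pcdhgc4 0.09 (SE 0.07, adjusted p = 0.281) by the authors' deposited table of PT against PUT. For these the excess over Pcdhga1 was 4.35% and 1.81% of the count, so under the same assumption their fold changes there say little of their own exons. Of the alpha genes, all 14 were positive, from 0.83 to 2.68, at mean normalised counts of 1.99 to 3.92. None passed or had an unadjusted p below 0.05. The excess over the lowest alpha gene was at most 49.2% of a gene's count. Since these genes share exons, the 14 values are not independent measurements. Pcdha1 and Pcdha8 had identical values, as had Pcdha4 and Pcdhac1, by the authors' deposited table. Pcdhac1 had 2.43 (SE 1.60) and Pcdhac2 2.18 (SE 1.17), with adjusted p of 0.213 and 0.117 by the authors' deposited table.

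Other annotated entries share the members' exons. Gm37013, Gm37388 and Gm42416 run from the alpha to the gamma array and Gm38182 lies at the 3′ end of the gamma array, and all their exon bases are also exon bases of members. They were looked up after the members' values were seen. Gm37013, at a mean normalised count of 84.4, had a log2 fold change of 1.34 (SE 0.23, adjusted p = 4.19e-08) by the authors' deposited table of PT against PUT. Gm42416, at 490, had one of 0.30 (SE 0.10, adjusted p = 0.00985) by the authors' deposited table. Gm38182, at 641, had one of 0.46 (SE 0.10, adjusted p = 8.6e-06) by the authors' deposited table. They cannot be told apart from the alpha and gamma members by exon sequence.

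The known regulators of the locus were next, as a list of 28 genes of CTCF, cohesin, DNA methylation and repressive chromatin. In Mutant cells 16 fell, Uhrf1 among them, and none rose, against 8.11% of all genes lower and 9.02% higher by the authors' deposited table. Their median test estimate was −0.26. None of the 28 averaged below 1 TPM, and low genes pass rarely. The share of all genes is therefore not one of like level, which is not given here. Apart from Uhrf1 and Tet3 the genes that fell had test estimates between −0.41 and −0.19. Tet3, which oxidises methylated cytosine, averaged 11.1 TPM in Mutant and 18.0 TPM in Control cells by the authors' deposited table (−0.71, SE 0.08, adjusted p = 2.18e-16). Smc3 and Rad21, core subunits of cohesin, fell with −0.41 (SE 0.06) and −0.36 (SE 0.05) by the authors' deposited table. Dnmt1, the maintenance methyltransferase, averaged 94.3 TPM in Mutant and 122 TPM in Control cells by the authors' deposited table (−0.37, SE 0.06, adjusted p = 3.2e-09). Ctcf averaged 71.3 TPM in Mutant and 82.8 TPM in Control cells by the authors' deposited table (−0.35, SE 0.06, adjusted p = 7.22e-07). Between PT and PUT, 10 of the 28 rose and 13 fell by the authors' deposited table, against 25.1% of all genes higher and 22.1% lower. Dnmt1 fell in PT (−0.78, SE 0.07), and Smchd1, a repressor of the protocadherin arrays in mice, rose (0.59, SE 0.08), whereas it had −0.29 (SE 0.06) in Mutant against Control by the authors' deposited tables. Smchd1 was named after its values were seen.

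**Figure D5:**
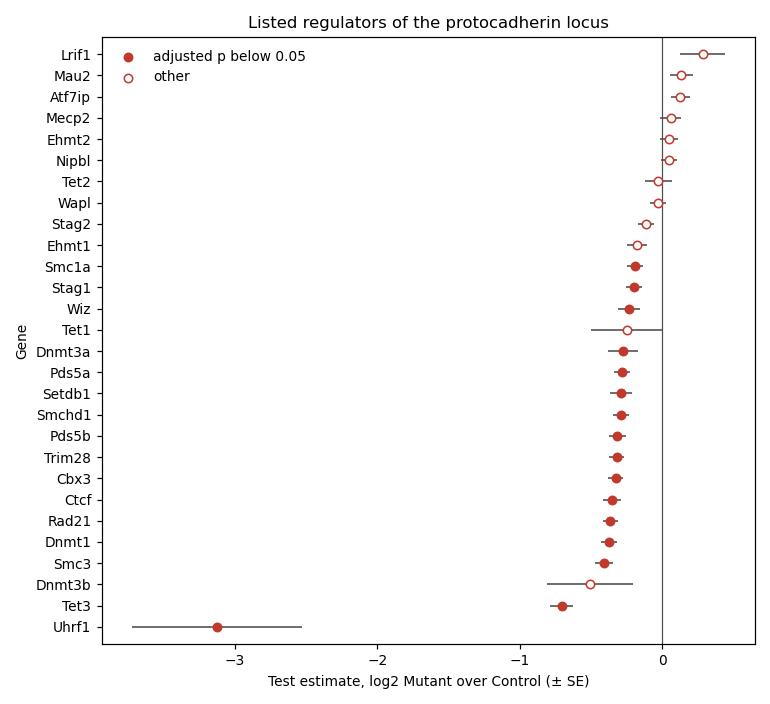
Test estimate (log2 Mutant over Control) with its SE as bars for the 28 listed regulators of the protocadherin locus, from the authors' deposited table, ordered by the estimate, with filled points for an adjusted p below 0.05. All 16 filled points lie below 0, Uhrf1 at −3.12 and the others between −0.71 and −0.19.

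Partners of protocadherin proteins, a list of 20 genes that holds kinases, actin regulators, proteases, scaffolds and neuroligins, had both directions among its calls. In Mutant cells 6 rose and 1 fell by the authors' deposited table, against 9.02% of all genes higher and 8.11% lower, with a median test estimate of 0.09. Only 1 of the 20 averaged below 1 TPM, and low genes pass rarely. The shares of all genes in this paragraph are therefore not of like level. Ptk2b, a focal adhesion kinase that protocadherins inhibit in neurons, averaged 19.1 TPM in Mutant and 7.13 TPM in Control cells by the authors' deposited table (1.42, SE 0.12, adjusted p = 1.07e-31). Of 7 listed subunits of the WAVE complex, which some protocadherin tails recruit, 3 rose, 1 fell and 3 did not pass. Cyfip2, a low gene named after its values were seen, averaged 2.20 TPM in Mutant and 0.348 TPM in Control cells by the authors' deposited table (2.53, SE 0.37, adjusted p = 5.35e-10). Wasf2 (0.33, SE 0.06) and Abi1 (0.31, SE 0.07) rose and Abi2 (−0.26, SE 0.08) fell by the authors' deposited table, while Nckap1, Cyfip1 and Wasf1 lay between −0.09 and 0.07. Between PT and PUT, 13 of 19 partners rose and 2 fell by the authors' deposited table, against 25.1% of all genes higher and 22.1% lower.

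Genes that flank the arrays, a list of 12, held 2 that rose and none that fell in Mutant cells, against 9.02% of all genes higher and 8.11% lower. Both are low. Fchsd1 averaged 4.23 TPM in Mutant and 2.17 TPM in Control cells, and Arap3 1.02 TPM in Mutant and 0.316 TPM in Control cells, by the authors' deposited table, and both were named after their values were seen. Taf7 and Slc25a2, which lie between the beta and gamma arrays, did not pass. Taf7 stood at 3.68 TPM in Mutant and 3.30 TPM in Control cells by the authors' deposited table (0.15, SE 0.22, adjusted p = 0.859). Slc25a2 stood at 0.351 TPM in Mutant and 0.910 TPM in Control cells by the authors' deposited table (−1.35, SE 0.87, adjusted p = 0.376). In PT against PUT 1 of the 12 rose and 6 fell, against 25.1% of all genes higher and 22.1% lower. Arap3 was the 1 that rose (1.16, SE 0.42), while Fchsd1 fell there (−0.81, SE 0.23), by the authors' deposited table.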

How the data were processed

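For repeats the authors deposited raw counts of the Mutant and Control libraries by subfamily, and for genes only comparison tables. Per the file headers, the table of Mutant against Control holds mean TPM by group, a log2 ratio, a standard error and a statistic (score values of the authors' test) and p-values before and after adjustment. Its deposited log2 value equals the log2 ratio of mean TPM plus 1, so it understates changes of low genes, and levels here are raw mean TPM. The test estimate is the deposited statistic times its standard error. Per the file headers, the table of PT against PUT holds a mean signal (normalised counts averaged by the authors), a log2 fold change with its standard error and statistic (scores), and p-values. The submitters' processing notes name, for Mutant and Control libraries, DESeq2, STAR 2.7.6a, featureCounts 2.0.1 and Trim Galore 0.6.6, with HISAT2 2.2.1 in place of STAR for Cre Control, in no stated role. The quantifier behind the TPM, the counting of reads in shared exons and the number of libraries behind each mean are not given in the sources used here. Multiplied by 3, 95.5% of the Mutant and 95.4% of the Control means between 10 and 1000 TPM were whole multiples of 0.0001 TPM within 0.02 of that step, as means of 3 such values would be, against 32.6% and 32.3% multiplied by 2. Depth per library is unknown for genes. Each library held 1794698 to 2245124 repeat counts.

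Members were matched by symbol, and positions and shared exon bases were computed from GENCODE M21. No test across genes was run anew. Calls use the deposited adjusted p below 0.05, intervals are the estimate ± 1.96 SE (95%), and every adjusted p is the authors', over all genes of its table (DESeq2 by the submitters' notes). Sums, ratios and medians were computed with pandas 2.3.3 and numpy 2.4.6 in Python 3.11.15, after their counting was tested on simulated tables. Named are the members past the threshold in either table, the C-type members, the 5 most abundant members of each array, Uhrf1, and of each list at most 6 genes past the threshold whose mean reached 10 TPM. The members' naming rule uses no values, but it and the lists (regulators, partners, flanking genes, other protocadherins, cadherins and cell type markers) were chosen with earlier results of these data known. Alternatives were other thresholds, a pseudocount of 0.1, filters on low values and sums without single members.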

Additional observations from a re-analysis of the deposited data

How the results depend on the processing

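The 4 members past the threshold in Mutant against Control became 10 (8 higher, 2 lower) at an adjusted p below 0.1. At an unadjusted p below 0.05 they became 15. The shares of all genes at these looser thresholds are not given here. The median deposited log2 ratio of the members, 0.18, was 0.37 with a pseudocount of 0.1, 0.50 as the test estimate, and 0.072 over the 25 members of at least 1 TPM, whose construction leaves out most beta and all alpha genes. The median log2 fold change in PT against PUT, 0.83, was 0.13 over the 38 members with a mean normalised count of at least 10, which holds all gamma genes, and 1.22 over the 21 beta genes. That last choice and the comparison with genes of like level were made after seeing the data. The ratio of summed TPM, 0.986, turned to 1.2 without the most abundant member of each array and 1.24 without the C-type genes. Of 100 member values recomputed under 2 settings 99 kept their sign, but a change of pseudocount cannot turn a sign. Only the values recomputed as the test estimate could turn, and 1 did, Pcdhga4, to −0.044. No paired analysis was possible because the gene tables hold no values per library, and leaving out each replicate was not run for the same reason. The counts in PT against PUT stayed within 1.5 times of 9 under every alternative threshold and filter run.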

Other observations

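The wider cadherin family was looked at beside the clustered genes. Of 12 non-clustered protocadherins, which have no arrays and act mostly singly, 1 rose in Mutant cells and none fell, against 17.1% of all genes past the threshold in either direction. Of the 12, 7 averaged below 1 TPM, and low genes pass rarely. Pcdh1, named after its values were seen, averaged 8.57 TPM in Mutant and 3.66 TPM in Control cells by the authors' deposited table (1.15, SE 0.17, adjusted p = 4.66e-10). Pcdh7 and Pcdh18, also named after their values were seen, were the most abundant. Pcdh7 stood at 42.1 TPM in Mutant and 36.0 TPM in Control cells, and Pcdh18 at 23.0 TPM in Mutant and 23.5 TPM in Control cells, by the authors' deposited table, and neither passed. In PT against PUT 5 of 10 rose and none fell, against 25.1% of all genes higher and 22.1% lower.

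Of 16 classical cadherins measured, 2 rose and 3 fell in Mutant cells by the authors' deposited table, against 9.02% of all genes higher and 8.11% lower. Of the 16, 9 averaged below 1 TPM. Cdh15, M-cadherin of satellite cells and myoblasts, averaged 74.6 TPM in Mutant and 91.7 TPM in Control cells by the authors' deposited table (−0.31, SE 0.09, adjusted p = 0.00249). Cdh2, N-cadherin, averaged 103 TPM in Mutant and 133 TPM in Control cells by the authors' deposited table (−0.36, SE 0.07, adjusted p = 9.61e-06). On the log2 scale both differences were smaller than that of Cdh11, a cadherin of mesenchymal cells, which rose. Cdh11, with 12.7 TPM in Mutant and 4.91 TPM in Control cells (1.41, SE 0.15, adjusted p = 4.6e-18), was named after its values were seen, as were Cdh6 (1.19, SE 0.32) and the endothelial Cdh5 (−1.34, SE 0.41) by the authors' deposited table. In PT against PUT 6 of 11 rose and 2 fell, against 25.1% of all genes higher and 22.1% lower, with Cdh15 at −0.67 (SE 0.10) and Cdh2 at 0.28 (SE 0.08) by the authors' deposited table.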
